A study of Mus musculus with 15 samples.

Results

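Collagens are the chains from which the fibres, networks and anchoring filaments of the extracellular matrix are built. The 44 genes described here are the rows of the count table whose mouse symbol has the form of a collagen chain (Col, a type number, the letter a and a chain number), out of 57010 rows in all. That rule reads the symbol and no measured value, but the genes were chosen with earlier results of these data known. Messenger RNA bound to ribosomes with phosphorylated S6 was precipitated from the olfactory epithelium of wild-type male C57BL/6J mice, 8 weeks of age, and sequenced. All mice were housed singly and habituated for 4 h without odour. They were then exposed for 90 min. In the O+C group octanal and cis-3-hexenol were put together on a single filter paper, and in the O&C group the same odorants were put on separate papers close to each other. The A+D group had acetophenone and decanal on a single paper, and the A&D group had them on separate papers. Each odorant was given at 10 µL. The Control mice were given empty papers. There were 3 mice in each of the 5 groups, which makes 15 libraries, and total counts ran from 22704193 to 25287077 per library.

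A collagen chain is made in the endoplasmic reticulum, where hydroxylases modify its prolines and lysines and chaperones such as Serpinh1 help chains wind into a helix. Propeptides are then cut off outside the cell and lysyl oxidases cross-link the fibrils. Type I collagen is the main fibre of bone, tendon and most connective tissue, type III accompanies it in soft connective tissue, type II belongs to cartilage, type IV forms the sheet of the basement membrane, and type VI forms beaded filaments around cells. In the nose, the sensory epithelium rests on a lamina propria of connective tissue, and this is attached to the thin bone of the turbinates.

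The genes were proposed as collagens of the lamina propria, and the libraries did not single out that source. The defining markers of the sensory epithelium were abundant: the summed level of 8 mature neuron markers ran from 7273 to 17315 CPM (edgeR's counts scaled to library size after TMM normalization), and Omp, the olfactory marker protein, averaged 6936 CPM. The 8 bone markers summed to between 1096 and 2195 CPM, and all 8 passed the count filter. Among them the bone sialoprotein gene Ibsp stood at 335 CPM per kb of transcript and the osteoblast transcription factor gene Sp7 at 26.1 CPM per kb. The osteocalcin genes Bglap and Bglap2 stood at 834 and 714 CPM per kb, and neither had a whole count (to within 0.001) in any library, so their reads are shared and their separate levels are uncertain. Of the 8 fibroblast markers, which summed to between 275 and 473 CPM, 6 passed the filter. Most of that sum came from the proteoglycans Dcn, at 130 CPM per kb, and Lum, at 54.7 CPM per kb. The fibroblast markers Dpt and Clec3b averaged 0.205 and 0.0452 CPM. The 8 cartilage markers summed to between 58.1 and 86.7 CPM, and 5 passed the filter. Sox9 averaged 56.1 CPM, Cnmd 9.29 CPM, Comp 4.21 CPM and Acan, the core protein of cartilage proteoglycan, 1.04 CPM. Hapln1, Matn3, Snorc and Matn1 averaged between 0.157 and 0.643 CPM. The 44 genes are therefore called collagen genes below, and the share of each tissue in their RNA was not tested. In an immunoprecipitate from whole tissue, fewer cells of a type, less RNA per cell and less RNA bound to phosphorylated S6 cannot be told apart.

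The 250 bases before the RefSeq start are shown for the chains on which the results turn: Col1a2, the most abundant member, Col16a1 and Col9a2, the others that differed between the odorant pairs, and Col3a1, the third by level, which did not pass that test. All are on the plus strand of GRCm38.p6, at chr6:4505368-4505617 for Col1a2, chr4:130047590-130047839 for Col16a1, chr4:121039316-121039565 for Col9a2 and chr1:45311288-45311537 for Col3a1. Capitals mark the first CCAAT, or, in Col3a1, TATAAA.
Col1a2: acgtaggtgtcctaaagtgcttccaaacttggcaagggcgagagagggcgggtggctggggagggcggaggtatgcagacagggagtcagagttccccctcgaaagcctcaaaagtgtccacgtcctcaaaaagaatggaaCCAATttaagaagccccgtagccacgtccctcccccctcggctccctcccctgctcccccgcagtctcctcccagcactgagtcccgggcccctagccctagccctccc
Col16a1: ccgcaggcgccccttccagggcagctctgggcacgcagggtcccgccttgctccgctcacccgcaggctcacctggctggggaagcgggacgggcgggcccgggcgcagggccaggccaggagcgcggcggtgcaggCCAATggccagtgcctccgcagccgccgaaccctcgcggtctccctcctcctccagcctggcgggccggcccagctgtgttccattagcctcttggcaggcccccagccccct
Col9a2: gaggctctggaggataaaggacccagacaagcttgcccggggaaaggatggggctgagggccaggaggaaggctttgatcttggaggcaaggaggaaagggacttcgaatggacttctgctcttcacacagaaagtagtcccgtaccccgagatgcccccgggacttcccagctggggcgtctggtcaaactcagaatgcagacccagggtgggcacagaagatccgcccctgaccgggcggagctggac
Col3a1: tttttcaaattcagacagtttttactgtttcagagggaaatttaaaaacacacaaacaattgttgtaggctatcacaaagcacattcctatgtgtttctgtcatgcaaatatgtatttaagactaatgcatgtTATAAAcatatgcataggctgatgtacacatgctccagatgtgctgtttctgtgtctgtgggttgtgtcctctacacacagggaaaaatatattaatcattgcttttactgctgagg
The CCAAT of Col1a2 began 109 bases before the start and that of Col16a1 113 bases before it, while neither CCAAT nor TATAAA was found in the Col9a2 window. The TATAAA of Col3a1 began 117 bases before the start. On either strand, the letters GGGCGG occurred 2 times before Col1a2, 1 time before Col16a1 and 2 times before Col9a2, and not before Col3a1. Promoters were listed for 35 of the 44 genes, 38 promoters in all. Searched on both strands, CCAAT was in 13 of these 38 (34.2%) and in 33.8% of the 32851 promoters of the table. TATAAA was in 5 of 38 (13.2%), against 12.4% of the table, and GGGCGG was in 22 of 38 (57.9%), against 32.7% of the table. GGGCGG and the other motifs were counted independently, and overlaps were allowed. A match of these letters is a description of the sequence only.

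The fibril-forming chains carried nearly all of the collagen reads. Col1a1 and Col1a2, the chains of type I collagen, made up 86.9% to 89.8% of the collagen counts of a library. Per kb of transcript, Col1a2 averaged 281 CPM and Col1a1 averaged 123 CPM. The ratio of Col1a2 to Col1a1 per kb lay between 2.09 and 2.54 in the 15 libraries, with a median of 2.29, although the protein holds more Col1a1 than Col1a2 chains. Col3a1, the chain of type III, stood at 6.53 CPM per kb, and its ratio to Col1a1 per kb was 0.0436 to 0.0638. Col11a2, a chain of the minor fibril collagen type XI, stood at 4.07 CPM per kb, and Col5a1, a chain of type V that is built into type I fibrils, at 3.56 CPM per kb. Col2a1, the cartilage collagen, stood at 1.92 CPM per kb.

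Outside the fibril-forming chains, Col16a1 was the highest, at 6.49 CPM per kb. It is a member of the fibril-associated collagens, which bind to the surface of other fibrils, and its level was close to that of Col3a1. Among the beaded filament chains, Col6a1 stood at 4.94 CPM per kb, Col6a3 at 0.514 and Col6a5 at 0.036 CPM per kb, with Col6a2 between Col6a1 and Col6a3. The basement membrane chains Col4a2 and Col4a1 stood at 0.446 and 0.432 CPM per kb. Col4a1 and Col4a2 are made in most basement membranes, and their counts ran only from 36 to 122 and from 45 to 108 per library. Col4a3 stood at 0.177 CPM per kb, with whole counts in 3 of 15 libraries, so that its reads are partly shared. The highest members of the remaining classes were Col8a2 of the hexagonal networks (1.47 CPM per kb), Col13a1 of the transmembrane collagens (1.75 CPM per kb), Col18a1, the source of endostatin (1.07 CPM per kb), Col26a1 (1.16 CPM per kb) and Col7a1 of the anchoring fibrils (0.069 CPM per kb). The count filter removed 8 members: Col4a4, Col4a5, Col4a6, Col6a4, Col6a6, Col17a1, Col19a1 and Col20a1. Col17a1, the hemidesmosome collagen of basal epithelial cells, had 1 to 15 counts per library. The 36 others passed, and of all 44 members, 35 had whole counts in each of the 15 libraries.

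**Figure D1:**
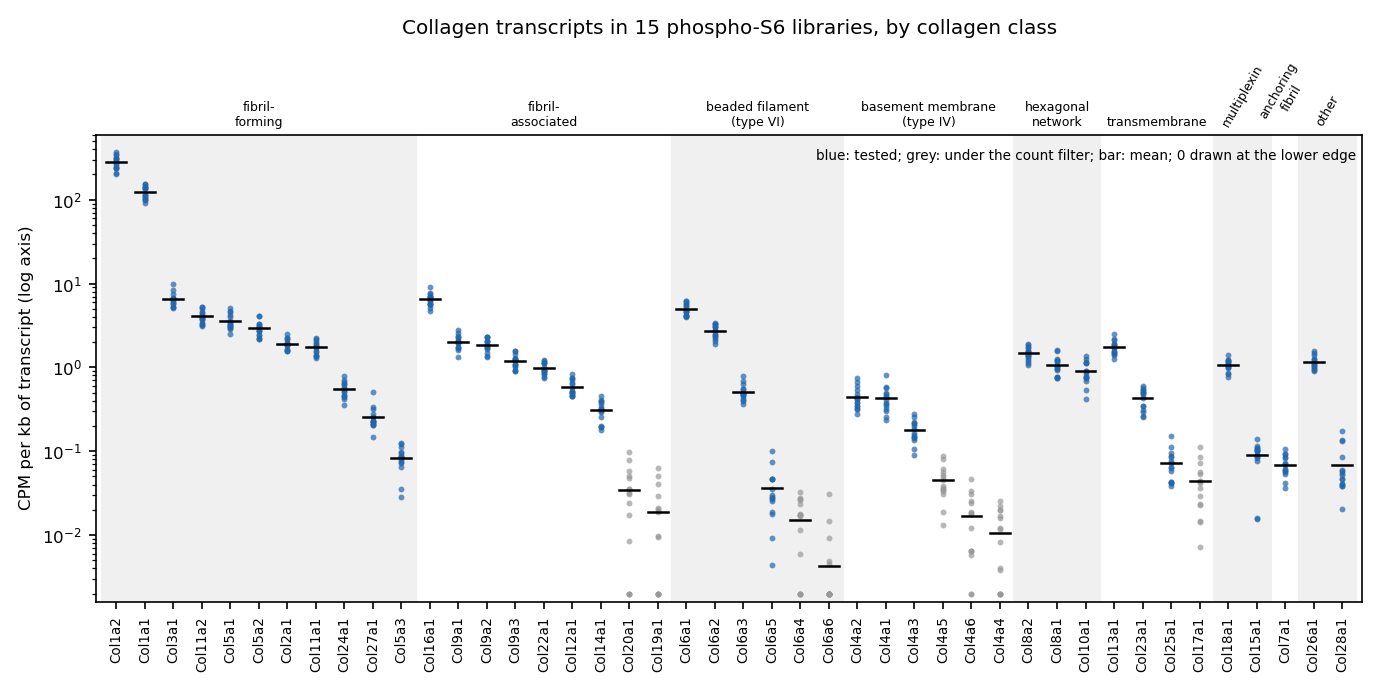
Level of each of the 44 collagen genes in 15 libraries, as CPM per kb of transcript on a log axis, ordered within collagen class. Points are libraries, bars are means, and grey points mark the 8 genes under the count filter. Col1a2 (281) and Col1a1 (123) lie more than a decade above Col3a1 (6.53), Col16a1 (6.49) and all others.

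The collagen genes took a small share of each library. They averaged 0.243 ± 0.068% of the counts in O+C mice, 0.203 ± 0.011% in O&C mice, 0.280 ± 0.034% in A+D mice, 0.287 ± 0.018% in A&D mice and 0.247 ± 0.036% in Control mice (SD, n = 3 each). The lowest single value was 0.177% in O+C replicate 1 and the highest 0.315% in A+D replicate 2, with 0.313% in O+C replicate 3 close to it. The O+C libraries therefore spanned nearly the whole range of the series.

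No collagen gene passed the adjusted threshold of 0.05 in any odour group against Control. The test was edgeR's quasi-likelihood test over all 15 libraries, with Benjamini-Hochberg adjustment over 19229 genes. It asked whether the level of a transcript in the precipitate, relative to the other RNA there, differed between each mixture and Control. In O+C mice 0 of 36 were called, against 8.09% of all genes tested. In O&C mice 0 of 36 were called, against 14.7% of all genes. In A+D mice the count was also 0 of 36, against 0.322% of all genes, and in A&D mice 0 of 36, against 1.02%. With all 12 odour libraries against the 3 Control libraries it was 0 of 36, against 8.32%. At an unadjusted p under 0.05 by edgeR, 4 of 36 members (11.1%) passed in O+C mice, 1 higher and 3 lower, against 23.2% of all genes. In O&C mice 5 (13.9%) did, all lower, against 29.6% of all genes. In A+D mice 4 (11.1%) did, 2 higher and 2 lower, against 13.7%, and in A&D mice 3 (8.33%) did, 2 higher and 1 lower, against 11.9%. In the pooled comparison it was 5 (13.9%), 1 higher and 4 lower, against 23.8%. DESeq2 called 0 members in each of the 4 groups and 1, Col26a1, in the pooled comparison.

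The median log2 fold change of the 36 members against Control was -0.22 in O+C mice, -0.26 in O&C mice, 0.00 in A+D mice and -0.02 in A&D mice. The median over all genes was -0.01, -0.04, 0.02 and -0.00 in the same order. These 4 comparisons share the same 3 Control libraries. Without O+C replicate 1 the O+C median was -0.004, and without Control replicate 1 it was -0.06. Without any other single O+C or Control library it lay between -0.13 and -0.25. The O&C median lay between -0.15 and -0.30 when single O&C or Control libraries were left out. The filter then left 37 or 38 members. In O&C mice 29 of 36 members were below 0, which is 80.6%, against 53.6% of all genes. The O&C libraries lay wholly below the Control libraries for 11 of 36 members (30.6%), against 19.7% of all genes, and wholly above them for 0 of 36, against 20.3% of all genes.

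Type I collagen showed how wide the errors of these comparisons were. Col1a2 had 1084, 1409 and 1829 CPM in O+C mice, 1128, 1267 and 1283 CPM in O&C mice, 1510, 1887 and 1672 CPM in A+D mice, 1972, 1683 and 1621 CPM in A&D mice, and 1596, 1266 and 1336 CPM in Control mice. All A&D values were above all Control values, as for 4 of 36 members (11.1%), against 11.6% of all genes. The Col1a2 values of the other groups overlapped Control. Against Control, its log2 fold change was 0.04 in O+C mice (95% interval -0.28 to 0.36), -0.19 in O&C mice (-0.51 to 0.13), 0.27 in A+D mice (-0.05 to 0.59) and 0.33 in A&D mice (0.01 to 0.65). Its adjusted p in edgeR's test was 0.405 in A&D mice and higher than that in the others. Col1a1 had 535, 683 and 912 CPM in O+C mice, 584, 653 and 618 CPM in O&C mice, 677, 908 and 788 CPM in A+D mice, 861, 819 and 825 CPM in A&D mice, and 846, 587 and 630 CPM in Control mice. Control replicate 1 was as high as the A&D libraries, and all groups overlapped Control. For Col1a1 the intervals against Control ran from -0.30 to 0.40 in O+C mice, from -0.50 to 0.20 in O&C mice, from -0.15 to 0.55 in A+D mice and from -0.07 to 0.63 in A&D mice.

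**Figure D2:**
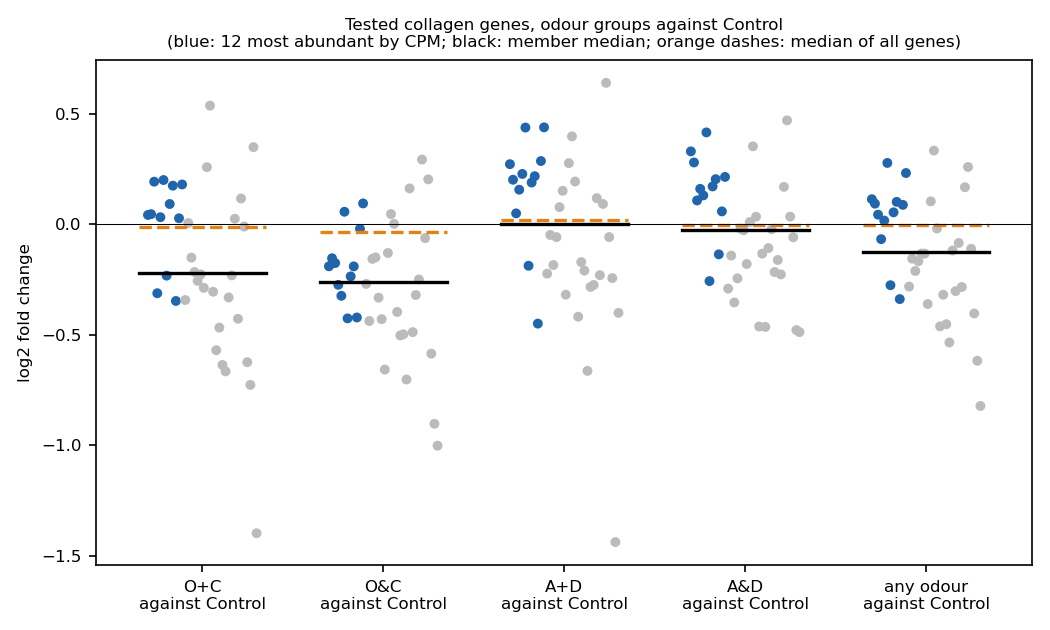
Log2 fold change of each of the 36 tested collagen genes (points, ordered by level from left to right within a column) in each odour group and in all odour groups together, relative to Control. Black lines are the member medians (O+C -0.22, O&C -0.26, A+D 0.00, A&D -0.02) and orange dashes the medians of all genes; no point passed the adjusted threshold.

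In each comparison with Control the member with the lowest unadjusted p was not a type I chain. In A&D mice Col1a2 was also under 0.05 (unadjusted p 0.0448 by edgeR). Col26a1 averaged 2.77 ± 0.28 CPM in O+C mice, 3.13 ± 0.21 CPM in O&C mice, 3.08 ± 0.39 CPM in A+D mice, 2.99 ± 0.50 CPM in A&D mice and 4.12 ± 0.23 CPM in Control mice. Its 12 odour libraries ran from 2.52 to 3.51 CPM and lay below its 3 Control libraries, at 3.87 to 4.32 CPM. It was the only member of 36 (2.78%) lower without overlap in this comparison, against 1.72% of all genes. For all odours against Control its log2 fold change was -0.46 ± 0.15 (SE), with an adjusted p of 0.0713 in edgeR's test. Col6a1 averaged 17.5 ± 1.3 CPM in O&C mice and 23.5 ± 1.5 CPM in Control mice, with a log2 fold change of -0.43 ± 0.16 (SE) and an adjusted p of 0.0908 by edgeR. Col6a2, which assembles with it, averaged 11.2 ± 0.5 CPM in O&C mice and 15.1 ± 0.8 CPM in Control mice, with an edgeR adjusted p of 0.121. Neither gene's groups overlapped, as for 11 of 36 members (30.6%) lower in O&C mice, against 19.7% of all genes. Col8a1 and Col10a1, chains of hexagonal networks that were singled out after their values were seen, had edgeR adjusted p of 0.0915 and 0.116 in the same comparison. Col11a2 averaged 28.4 ± 3.1 CPM in A+D mice, 28.0 ± 3.5 CPM in A&D mice and 21.0 ± 2.3 CPM in Control mice, and both odour groups lay wholly above Control. Members wholly above Control were 3 of 36 (8.33%) in A+D mice, against 8.12% of all genes. In A&D mice they were 4 of 36 (11.1%), against 11.6%. The log2 fold changes of Col11a2 were 0.44 ± 0.16 and 0.42 ± 0.16 (SE), each with an edgeR adjusted p of 0.275. Without A+D replicate 2, edgeR called Col6a1 and Col8a1 lower in O&C mice than in Control, and Col26a1, Col6a2 and Col8a1 lower in all odour groups together than in Control.

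The odorant pairs differed from each other in 3 collagen genes, all lower after octanal and cis-3-hexenol (O+C and O&C together, 6 libraries) than after acetophenone and decanal (A+D and A&D together, 6 libraries). These were 3 of 36 members (8.33%), against 6.74% of all genes called lower and 15.8% called in either direction. At an unadjusted p under 0.05 by edgeR 7 members (19.4%) were lower and 0 higher, against 31.2% of all genes in either direction. The count called was 6 without A+D replicate 1, 5 without O+C replicate 3, and 1 without any single one of O+C replicates 1 and 2, O&C replicate 3, A+D replicate 2 or A&D replicate 1. The direction was shared by more members than the calls: 32 of 36 (88.9%) had a log2 fold change below 0, against 53.2% of all genes. The median was -0.19, against -0.03 over all genes. With single libraries left out it lay between -0.10, without A+D replicate 2, and -0.25, without A+D replicate 3. It was -0.12 without O+C replicate 1. Without both O+C replicate 1 and A+D replicate 2, a setting chosen after seeing the data, it was -0.04. Members moved together in single libraries, as given below, so they are not independent. With all 15 libraries, all 11 fibril-forming members were below 0, with a median of -0.25. So were all 7 tested fibril-associated members, with a median of -0.19. Of the 4 tested beaded filament chains 3 were below 0, with a median of -0.09, and all 3 tested basement membrane chains were, with a median of -0.23.

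Col16a1, the fibril-associated chain, had the smallest p of the members. It had 24.4, 29.6 and 29.8 CPM in O+C mice and 30.6, 29.1 and 26.4 CPM in O&C mice, against 32.9, 46.8 and 36.3 CPM in A+D mice and 38.7, 37.3 and 40.4 CPM in A&D mice. Every O+C and O&C library was below every A+D and A&D library, also without the highest, A+D replicate 2. Col16a1 was the only member whose 6 libraries of a pair did not overlap the other 6 (1 of 36 lower, 2.78%, against 3.26% of all genes). The means were 28.3 ± 2.4 CPM for octanal and cis-3-hexenol and 38.7 ± 4.7 CPM for acetophenone and decanal (SD, n = 6 each). The log2 fold change was -0.45 ± 0.09 (SE), with an adjusted p of 0.0041 in edgeR's test. Over the 19 alternative settings its adjusted p by edgeR or DESeq2 lay between 1.33e-04 and 0.0203. The Control libraries, at 31.9 to 36.2 CPM, lay above all O+C and O&C libraries and overlapped those of A+D. Control lay wholly above O+C for 6 of 36 members (16.7%), against 15.2% of all genes, and above O&C for 11 (30.6%), against 19.7%.

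Col1a2, whose values are given above, averaged 1333 ± 269 CPM after octanal and cis-3-hexenol and 1724 ± 173 CPM after acetophenone and decanal (SD, n = 6 each). O+C replicate 3, at 1829 CPM, overlapped the acetophenone and decanal libraries, while the other 5 of its pair lay below them. The log2 fold change was -0.38 ± 0.11 (SE), with an adjusted p of 0.0263 in edgeR's test. The call was lost without any single one of O+C replicates 1 and 2, O&C replicates 1 and 3, A+D replicate 2 or A&D replicate 1. The adjusted p by edgeR then lay between 0.0548 and 0.0769. Col1a1, its partner chain, averaged 664 ± 132 CPM after octanal and cis-3-hexenol and 813 ± 78 CPM after acetophenone and decanal, and was not called (log2 fold change -0.29 ± 0.12 SE, adjusted p 0.0963 by edgeR). Col3a1 averaged 40.4 ± 12.9 CPM in O+C mice, 31.3 ± 4.4 CPM in O&C mice, 36.6 ± 8.2 CPM in A+D mice, 38.1 ± 2.7 CPM in A&D mice and 35.3 ± 1.8 CPM in Control mice, and its interval between the pairs ran from -0.35 to 0.21.

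Col9a2, a chain of the cartilage-type fibril-associated collagen IX, was the last of the 3. It had 4.39, 5.18 and 5.29 CPM in O+C mice and 5.03, 3.97 and 3.92 CPM in O&C mice, against 5.83, 6.78 and 6.73 CPM in A+D mice and 6.07, 6.11 and 4.90 CPM in A&D mice. A&D replicate 3 alone fell within the range of the octanal and cis-3-hexenol libraries. These values rest on 88 to 165 counts per library. The log2 fold change was -0.39 ± 0.13 (SE), with an adjusted p of 0.0441 in edgeR's test, and the call was kept in 6 of 19 alternative settings, with an adjusted p by edgeR or DESeq2 of 0.0303 to 0.172 over the 19. Of the single libraries, the call held only without O&C replicate 1, A+D replicate 1 or A&D replicate 3. Col2a1 and the type IV and type VI chains were not called: the intervals ran from -0.42 to 0.08 for Col2a1, from -0.76 to 0.30 for Col4a1, from -0.82 to 0.16 for Col4a2, from -0.35 to 0.14 for Col6a1 and from -0.36 to 0.17 for Col6a2.

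**Figure D3:**
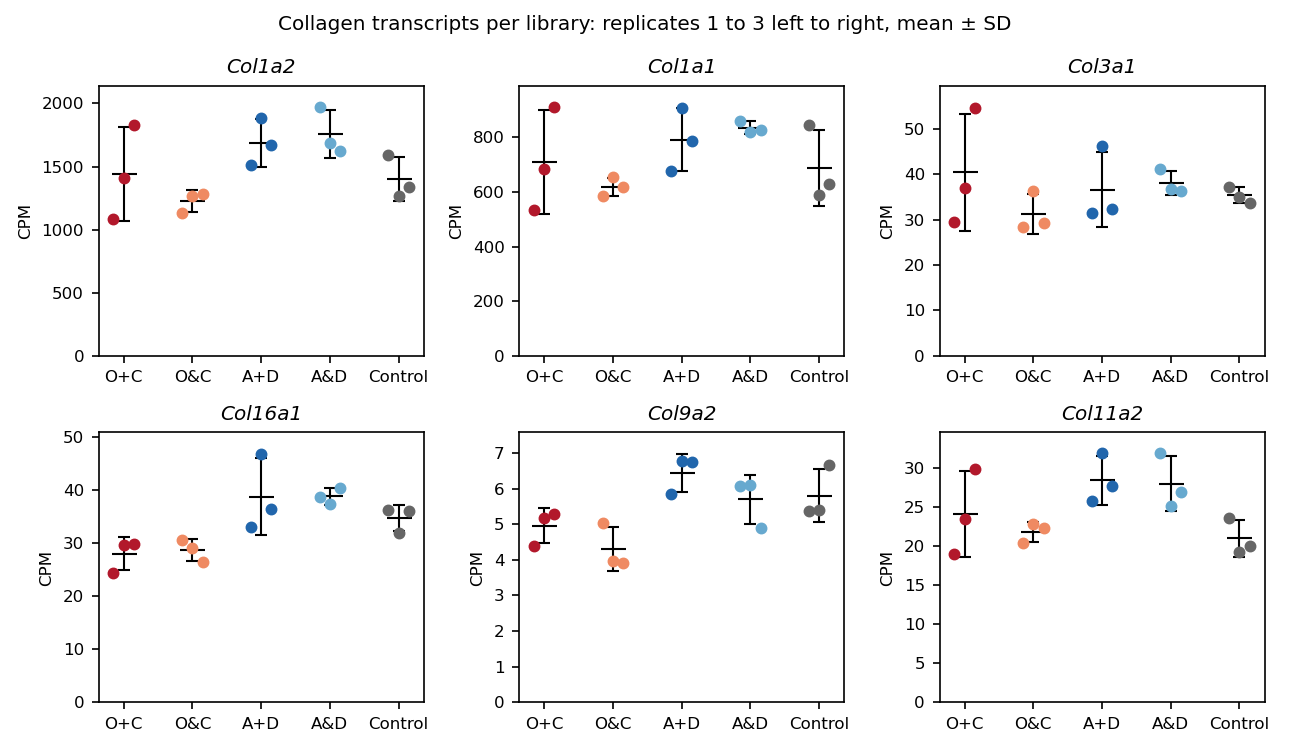
CPM of 6 collagen genes in each library, with replicates 1 to 3 from left to right in each group and the mean ± SD in black. Col16a1 reached at most 30.6 CPM in the O+C and O&C libraries and at least 32.9 CPM in the A+D and A&D libraries, and O+C replicate 3 stood highest in its group for Col1a2, Col1a1 and Col3a1.

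**Figure D4:**
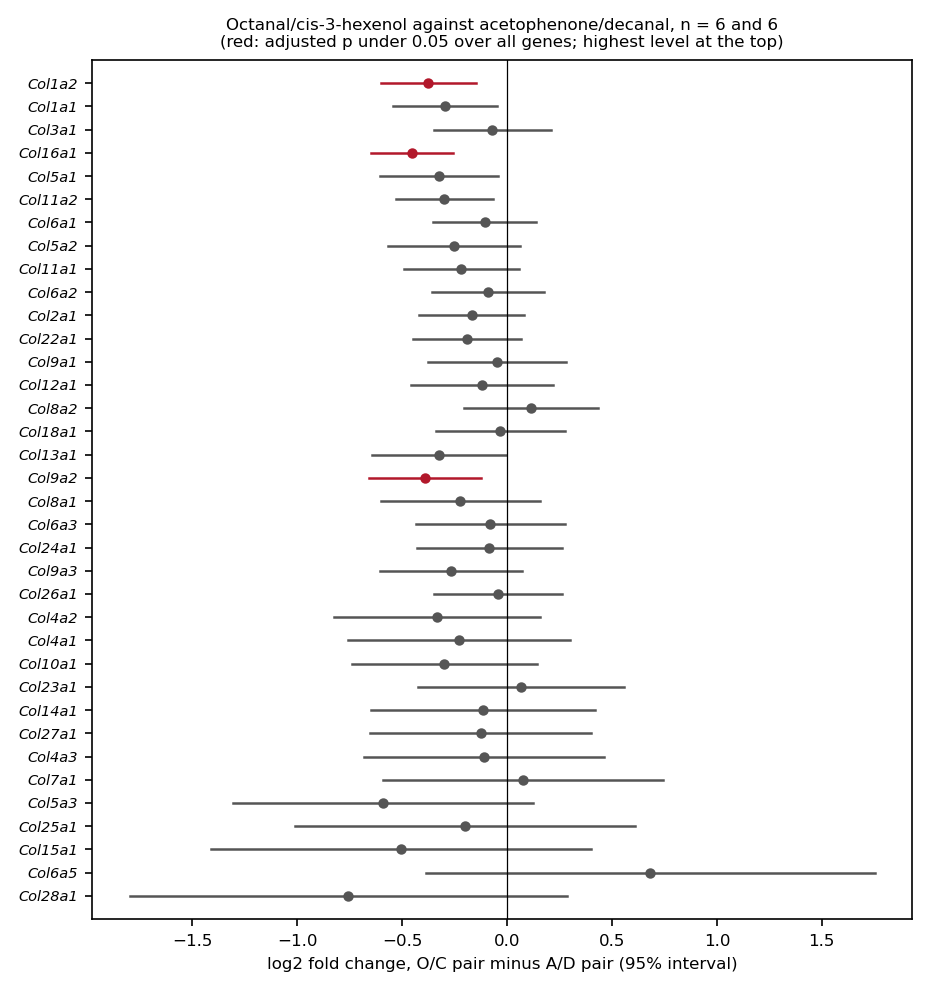
Log2 fold change (point) and 95% interval (line) of the 36 tested collagen genes for octanal and cis-3-hexenol (6 libraries) minus acetophenone and decanal (6 libraries), ordered by level. The 3 genes in red, Col1a2 (-0.38), Col16a1 (-0.45) and Col9a2 (-0.39), had an adjusted p under 0.05, and 32 of 36 points are below 0.

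Markers of several cell types differed in the same comparison between the pairs, in which 6.74% of all genes were called lower and 9.03% higher. Of the 8 mature neuron markers 7 were called higher, with a median log2 fold change of 0.45. Lower calls were made for 3 of 8 bone markers (Bglap, Bglap2 and Phex), for 2 of 6 tested fibroblast markers (Dcn and Pi16), and for 3 of 6 immune markers. The summed bone markers ran from 1096 to 1621 CPM in O+C mice and from 1296 to 1326 CPM in O&C mice, against 1902 to 2065 CPM in A+D mice and 1775 to 2195 CPM in A&D mice, so the pairs did not overlap. Control mice had 1606 to 1998 CPM. A large part of that difference lay in Bglap and Bglap2, whose reads are shared, so their calls are not separate. They averaged 253 and 227 CPM after octanal and cis-3-hexenol, and 488 and 457 CPM after acetophenone and decanal. The bone markers Ibsp, Sp7, Runx2, Dmp1 and Alpl were not called between the pairs. The summed fibroblast markers ran from 275 to 371 CPM in O+C mice and from 290 to 332 CPM in O&C mice, against 340 to 434 CPM in A+D mice, 400 to 469 CPM in A&D mice and 419 to 473 CPM in Control mice. Of the other lists, 1 of 6 sustentacular, 1 of 6 Bowman gland and 1 of 8 pericyte and smooth muscle markers (Rgs5) were called lower. Another gene of the last list, Myh11, was called higher. No cartilage, glial, endothelial, horizontal basal or skeletal muscle marker was called between the pairs. Against Control, lower calls in O+C and in O&C mice were made for 3 and 1 of 8 endothelial, 2 and 2 of 8 pericyte and smooth muscle, 1 and 2 of 6 sustentacular, 1 and 1 of 6 Bowman gland, 1 and 1 of 7 glial and 1 and 1 of 6 horizontal basal markers. Of all genes, 2.35% were called lower in O+C mice and 5.41% in O&C mice. Of 5 cartilage markers 1 was called higher and 1 lower in O&C mice, and 0 in O+C mice. Higher calls in O&C mice were made for 9.33% of all genes. In A+D mice no marker was called against Control, against 0.322% of all genes. In A&D mice 2 of 8 neuron markers were called, both higher, against 1% of all genes called higher. None of the bone markers was at 0 in any library. The part of these cell types in the collagen differences was not tested.

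**Figure D5:**
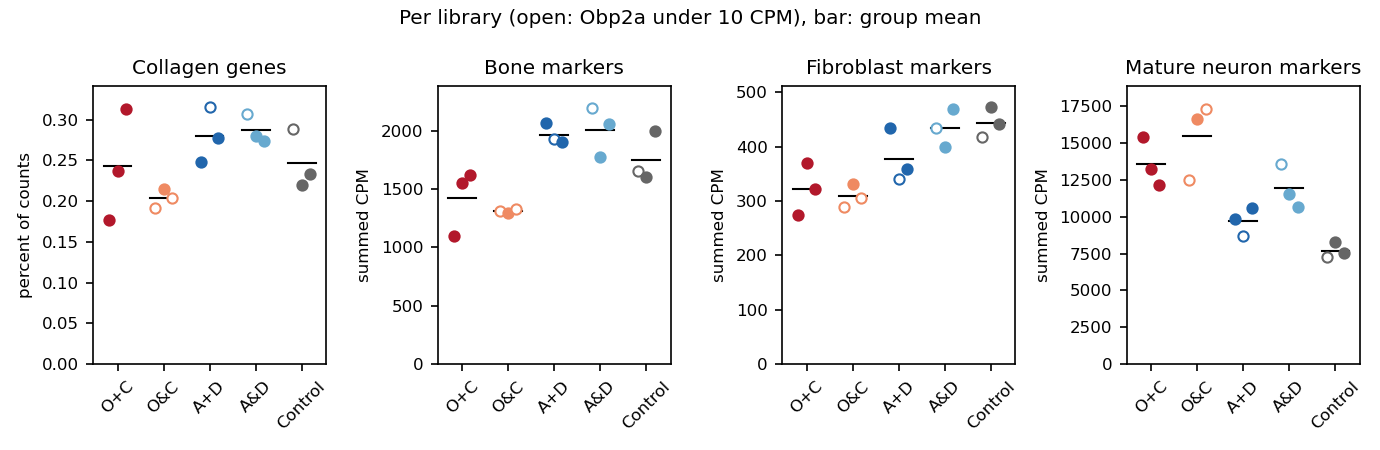
Collagen share of counts and summed CPM of bone, fibroblast and mature neuron markers in each library, with bars at group means. Open points are the 5 libraries with the gland transcript Obp2a under 10 CPM. Bone markers lay between 1096 and 1621 CPM in O+C and O&C and between 1775 and 2195 CPM in A+D and A&D, and neuron markers were lowest in Control. The bone sums include Bglap and Bglap2, whose reads are shared.

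No difference between the single paper and the separate papers was detectable for the collagen genes. For O+C against O&C 0 of 36 members were called, and 0% of all genes were, with 1 member (2.78%) and 3.98% of all genes at an unadjusted p under 0.05 by edgeR. For A+D against A&D 0 of 36 were called, against 0.12% of all genes, with 0 members and 3.91% of all genes at an unadjusted p under 0.05. DESeq2 also called 0 in each. For O+C against O&C 24 of 36 members had a log2 fold change above 0, with a median of 0.08 (all genes -0.00). Below 0 were 33.3% of members, against 50.7% of all genes. All 11 fibril-forming members were above 0, with a median of 0.33. O+C replicate 3 was the highest of its group for most members. Without that library the median of the members was -0.03. It was 0.16 without O+C replicate 1 and 0.13 without O+C replicate 2. For A+D against A&D 21 of 36 were above 0, with a median of 0.03. Below 0 were 41.7% of members, against 46.5% of all genes. The test of whether the delivery effect differed between the pairs called 0 of 36, against 0.0104% of all genes, with 1 member, Col6a5, and 2.69% of all genes at an unadjusted p under 0.05. For Col1a2 the 95% interval was -0.09 to 0.55 for O+C against O&C and -0.38 to 0.26 for A+D against A&D. For Col1a1 it was -0.15 to 0.55 and -0.43 to 0.27 in the same order.

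Within groups, collagen levels moved together in single libraries. O+C replicate 3 was the highest of its group for 26 of 36 members (72.2%), against 38.5% of all genes, and O+C replicate 1 was the highest for 1 of 36 (2.78%), against 33.5%. A+D replicate 2 was the highest of its group for 24 of 36 (66.7%), against 41.8% of all genes. A+D replicate 2 also correlated least with the other libraries over all genes (mean r 0.958, the others 0.970 or higher), and it was among the 5 libraries with Obp2a under 10 CPM. These were Control replicate 1, O&C replicates 1 and 3, A+D replicate 2 and A&D replicate 1, and in all others Obp2a was at least 109 CPM of the total count. With this split added to the model, edgeR called 3 members between the pairs and 1, Col8a1, lower in O&C mice than in Control.

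Chains that share a protein followed each other across the 15 libraries. In all, 8 relations were computed on log2 CPM, with permutation tests and Benjamini-Hochberg adjustment over the 8. Collagen chains of different proteins were not related to each other, so these r are not shown to be particular to partner chains. As given above, O+C replicate 3 and A+D replicate 2 were the highest of their groups for most members. Col1a1 and Col1a2 had r = 0.958 and rho = 0.939, each with a permutation p of 1e-05, the smallest that the permutations could give, and adjusted p of 8e-05. With group means removed r was 0.944 (adjusted permutation p 0.00392), and without the libraries farthest from the median, O+C replicate 3 and A+D replicate 2, it was 0.945. Col6a1 and Col6a2 had r = 0.792 and rho = 0.729 (permutation p 0.00065 and 0.00244, adjusted 0.0026 and 0.00933), with r = 0.886 within groups (adjusted permutation p 0.0338) and 0.771 without the 2 farthest libraries. Col4a1 and Col4a2 had r = 0.698 and rho = 0.721 (permutation p 0.00375 and 0.0035, adjusted 0.01 and 0.00933). Within groups that r was 0.646 (adjusted permutation p 0.227), without A+D replicate 2 it was 0.566 (adjusted 0.0716), so the relation of the type IV chains was not past the threshold in those settings. Without the 2 farthest libraries it was 0.611, for which no test was run.

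The relations with marker genes of particular tissues had lower r. Col1a1 and the osteocalcin gene Bglap had r = 0.631 and rho = 0.611 (permutation p 0.0122 and 0.0174, adjusted 0.0245 and 0.0348). Within groups r was 0.414 (adjusted permutation p 0.516), without A+D replicate 2 it was 0.573 (adjusted 0.0716), and without the 2 farthest libraries 0.649. Col1a1 and Lum had r = 0.090 and rho = 0.093 (adjusted permutation p 0.749 and 0.744). That r was -0.21 within groups (adjusted permutation p 0.659) and 0.414 without O+C replicate 3 and A+D replicate 2, the libraries farthest from the median. Col2a1 and Acan, both of cartilage, had r = 0.285 and rho = 0.371 (adjusted permutation p 0.403 and 0.231). Col4a1 and the endothelial gene Pecam1 had r = 0.378 and rho = 0.375 (adjusted permutation p 0.265 and 0.231), and r = 0.102 without the 2 farthest libraries. Col17a1 and Krt5, a keratin of basal cells, had r = -0.12 and rho = -0.14 (adjusted permutation p 0.749 and 0.708), at the very low counts of Col17a1.

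Of 30 genes for hydroxylation, folding, export, cleavage and cross-linking 28 were tested. Calls were 2 higher and 0 lower in O+C mice, 2 higher and 1 lower in O&C mice, 0 in A+D mice and 1 higher in A&D mice against Control, and 2 higher and 1 lower for octanal and cis-3-hexenol against acetophenone and decanal. Of all genes, 8.09%, 14.7%, 0.322%, 1.02% and 15.8% were called in these comparisons, in the same order. Pcolce2, an enhancer of procollagen C-proteinase, was called higher than in Control in 3 odour groups. It averaged 202 CPM in O+C mice, 215 CPM in O&C mice and 172 CPM in A&D mice, against 109 CPM in Control mice. In A+D mice it averaged 152 CPM and was not called. In the 3 groups called the log2 fold changes were 0.89 ± 0.13, 0.98 ± 0.13 and 0.66 ± 0.13 (SE), with edgeR adjusted p of 0.000361, 6.87e-05 and 0.01. For all odour groups together against Control it was 0.75 ± 0.11 (SE), with an edgeR adjusted p of 0.000379, called in all 20 settings. The calls in O+C and O&C mice were kept in all 13 settings, and that in A&D mice was lost without A&D replicates 1 or 2 or Control replicate 1 (adjusted p up to 0.0945). Mature neuron markers moved with Pcolce2: 8 of 8 were called higher in O+C mice, 8 of 8 in O&C mice, 0 in A+D mice and 2 of 8 in A&D mice than in Control, and the part of neurons in its level was not tested. Pcolce, the related enhancer, was lower after octanal and cis-3-hexenol than after acetophenone and decanal (-0.30 ± 0.07, adjusted p 0.0106 by edgeR, called in all 19 settings). It was also lower in O&C mice than in Control (-0.31 ± 0.10, adjusted p 0.0474 by edgeR), a call that was lost without any single O&C or Control library. That call was kept in 4 of 13 settings, being lost also with RLE scaling, no count filter and a replicate block. Mia3, which loads procollagen into transport vesicles, was higher in O+C mice than in Control (0.50 ± 0.15, adjusted p 0.0435 by edgeR). Its call was lost without O+C replicates 1 or 3 or any Control library and with a replicate block. Colgalt1, a collagen galactosyltransferase with whole counts in 0 of 15 libraries and so with shared reads, was called higher after octanal and cis-3-hexenol than after acetophenone and decanal (0.38 ± 0.08, adjusted p 0.00372 by edgeR). The chaperone Serpinh1, at 98.8 CPM per kb, the prolyl hydroxylase subunit P4hb, at 98.9, and the cross-linking enzyme Lox, at 4.78, were called in none of the 9 comparisons.

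Genes of collagen breakdown passed the adjusted threshold as lower than in Control mainly in O&C mice, though the direction was not particular to that group. The median log2 fold change of the 9 tested was -0.44 in O+C, -0.35 in O&C, -0.36 in A+D and -0.27 in A&D mice. At an unadjusted p under 0.05 by edgeR 3, 5, 6 and 3 passed in either direction, in the same order. Of all genes 23.2%, 29.6%, 13.7% and 11.9% did. Of 11 such genes, which include the tissue inhibitors of metalloproteinases, 9 were tested, and 5 fell in O&C mice, against 5.41% of all genes called lower. The single gene called in O+C mice and in A+D mice was Mmp13 (2.35% and 0.026% of all genes were lower), and in A&D mice 0 were called (0.0208%). In all odour groups together 3 fell (Mmp13, Mmp9 and Ctsk), against 3.06% of all genes. That count was 1 with a replicate block and 1 to 4 with single libraries left out. Mmp13 was called in all 20 settings of that comparison, Mmp9 in 8 and Ctsk in 7. The count was 1, Mmp13, without any single O+C or O&C library, A+D replicate 3, A&D replicates 1 or 2, or Control replicates 1 or 2. Mmp13, the main collagenase of mouse bone, averaged 259 CPM in O+C mice, 206 CPM in O&C mice and 208 CPM in A+D mice, against 367 CPM in Control mice. In A&D mice, where it was not called, it averaged 237 CPM. Its log2 fold changes in O+C, O&C and A+D mice were -0.50 ± 0.15, -0.83 ± 0.15 and -0.82 ± 0.15 (SE), with edgeR adjusted p of 0.0489, 0.00148 and 0.0181. The call in O&C mice was kept in all 13 settings. That in O+C mice was lost without any single O+C or Control library and with a replicate block. That in A+D mice was lost without A+D replicates 2 or 3 or Control replicates 1 or 2. It was also lost with only the groups compared in the fit and with a replicate block. Ctsk, the collagen-degrading cathepsin of osteoclasts, averaged 466 CPM in O&C mice and 874 CPM in Control mice (-0.91 ± 0.22, adjusted p 0.014 by edgeR, 0.0644 without Control replicate 2). It averaged 606 CPM in O+C mice, 614 CPM in A+D mice and 667 CPM in A&D mice, without a call in these groups. The gelatinase Mmp9 averaged 107 CPM in O&C mice and 188 CPM in Control mice (-0.82 ± 0.24, adjusted p 0.0302 by edgeR). Its call was lost without any O&C library or Control replicates 1 or 2 and with a replicate block (adjusted p up to 0.111). Its means in the groups without a call were 137 CPM in O+C, 121 CPM in A+D and 125 CPM in A&D mice. Timp1 and Timp3, inhibitors of these enzymes, were the other genes lower in O&C mice, each lost without any single O&C or Control library. Both calls were also lost with a replicate block, and that of Timp3 with no count filter and with the Obp2a split in the model. Between the pairs, the inhibitor Timp1 was lower (-0.57 ± 0.12, adjusted p 0.00427 by edgeR) and the inhibitor Timp2 higher (0.43 ± 0.10, adjusted p 0.00814) after octanal and cis-3-hexenol than after acetophenone and decanal. No collagen receptor was called apart from Lair1, an inhibitory receptor of leukocytes, among 10 tested. Lair1 averaged 3.98 CPM in O+C mice, 3.67 CPM in O&C mice and 7.33 CPM in Control mice, with edgeR adjusted p of 0.0431 and 0.0156. The first call was lost without any single O+C or Control library, with a replicate block and with the Obp2a split in the model. The second was lost without O&C replicates 1 or 3 or Control replicate 2. Immune markers moved with these genes: 2 of 6 were lower in O+C mice and 4 of 6 in O&C mice than in Control. Of 8 bone markers 1, Phex, was lower in O&C mice and none was called in the other groups against Control. The part of these cells in the result was not tested.

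Other matrix genes were lower after octanal and cis-3-hexenol than after acetophenone and decanal in 3 of 16 cases, with 0 higher, against 6.74% of all genes called lower and 9.03% called higher. Sparc, the calcium-binding matrix protein osteonectin, averaged 2112 CPM after octanal and cis-3-hexenol and 2962 CPM after acetophenone and decanal (-0.49 ± 0.08 SE, adjusted p 0.000513 by edgeR). Decorin, Dcn, which binds type I fibrils, averaged 184 CPM and 252 CPM in the same order (-0.46 ± 0.08, adjusted p 0.00202 by edgeR). The small proteoglycan Bgn averaged 124 CPM and 168 CPM (-0.44 ± 0.11, adjusted p 0.016 by edgeR). These 3 calls were kept whichever single library was left out. Against Control, 2 of 16 were lower in O+C mice (Dcn and Ogn) and 4 of 16 in O&C mice (Dcn, Sparc, Postn and Ogn), and none in A+D or A&D mice (3 and 0 at an unadjusted p under 0.05 by edgeR). Of all genes 2.35% were lower in O+C mice and 5.41% in O&C mice. Dcn stayed called in O&C mice in all 13 settings, and in O+C mice in all but that without O+C replicate 1 (adjusted p 0.0657). The Ogn call was kept in 8 of 13 settings in O+C mice, being lost without any single O+C library or Control replicates 2 or 3. In O&C mice it was kept in 7 of 13, being lost without O&C replicates 1 or 3 or Control replicates 2 or 3, with no count filter and with the split by Obp2a, a gland transcript, in the model. There the Sparc call was kept in 9 of 13 settings, being lost without O&C replicates 1 or 3 or Control replicates 1 or 2, and the Postn call in 8 of 13, being lost without O&C replicates 1 or 3 or any Control library. Fibroblast markers moved with these genes against Control: 3 of 6 were lower in O+C mice and 2 of 6 in O&C mice, and their part was not tested. Dcn is itself 1 of those markers. Of the 15 basement membrane genes other than collagens, 1 was called in the 9 comparisons, the laminin chain gene Lama4. It averaged 1.61 CPM in O&C mice and 3.04 CPM in Control mice (-0.91 ± 0.26, adjusted p 0.0247 by edgeR). The call was lost without any single O&C or Control library and with no count filter.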

How the data were processed

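Ribosome-bound RNA was sequenced from 15 samples after a stranded mRNA library preparation, per the labels' protocols. The authors deposited 1 table of expected counts per gene, which need not be whole and carry no scaling. STAR 2.7.10b, Salmon 1.10.1, R 4.4.2 and GRCm39 are named in the submitters' processing notes. The annotation and the use of strand are not given in the sources used here. Of 57010 identifiers, 52029 had a symbol in the name table. The labels call the 3 samples of a group biological replicates. They do not say more of their origin, and no 2 libraries of a group agreed within sampling noise.

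Counts were rounded and scaled by TMM, and filterByExpr with a minimum count of 10 left 19229 genes. The test was edgeR 4.0.16 (quasi-likelihood, robust, R 4.3.3) with 1 mean per group over all 15 libraries, adjusted by Benjamini-Hochberg over all genes at 0.05, two-sided, in 9 comparisons. The SE is the absolute log2 fold change over the square root of F. DESeq2 1.42.0 was an alternative, as were RLE scaling, no filter, only the groups compared, a replicate block, the Obp2a split (10 CPM) as a covariate, and each library left out. Relations used log2 CPM with a prior count of 2 and 100000 permutations, two-sided. The test was also run on simulated data. The members and gene lists were chosen with earlier results of these data known. Genes named are the members called in a comparison, the 6 with the highest CPM, the highest of each class, the chains of types I, III, IV and VI, Col2a1 and Col17a1, up to 3 called genes of an accompanying list by smallest p, and the genes of the relations. Any other is a gene chosen after its values were seen, such as Col8a1, Col10a1, Col6a5, Serpinh1, P4hb, Lox and the markers. Lengths per kb are those of the longest protein-coding transcript in GENCODE M21 (GRCm38), which is not the build of the counts, and promoters are RefSeq's on GRCm38.p6. A transcript length from another annotation can shift levels between genes, not differences between groups.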

Additional observations from a re-analysis of the deposited data

How the results depend on the processing

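Of 133 alternative settings of the 9 counts of collagen genes called, 120 stayed within 1.5 times of the count reported. The count was 0 in 8 of the 9 comparisons, and a count that stayed at 0 is included as unmoved. Most of the 120 are such cases and say little about stability. For octanal and cis-3-hexenol against acetophenone and decanal, with 3 called, the count was 1 to 6 when single libraries were left out. It was 6 without A+D replicate 1, 5 without O+C replicate 3, and 1 without O+C replicate 1, O+C replicate 2, O&C replicate 3, A+D replicate 2 or A&D replicate 1. It was 1 without both O+C replicate 1 and A+D replicate 2, a setting chosen after seeing the data. DESeq2 gave 3, RLE scaling 3, and no filter 4. For O&C against Control, with 0 called, the count was 3 with only the groups compared (Col6a1, Col6a2 and Col8a1), 1 with the gland split as a covariate (Col8a1), and 0 to 2 with single libraries left out (2 without A+D replicate 2). For all odours against Control, with 0 called, it was 1 with DESeq2 (Col26a1) and 0 to 3 with single libraries left out (3 without A+D replicate 2). The cause was not tested. Without Col1a1, Col1a2 and Col3a1 the collagen share of counts was 0.0241% in O+C, 0.0212% in O&C, 0.0275% in A+D, 0.0263% in A&D and 0.0269% in Control, since those chains hold most of the counts. With them the share in A&D (0.287%) was above A+D (0.280%) and Control (0.247%), and without them below both. The 3 called genes kept their direction in every setting run. The r of Col1a1 and Lum was 0.090, and -0.21 with group means removed. Replicate numbers did not pair the samples: of 30 same-numbered pairs 3 had a correlation of deviations over 0.1 (range -0.33 to 0.14), and 0 libraries were closest to one of their own number. With a replicate block, 2 members (Col16a1 and Col1a2) were called between the odorant pairs and 0 in the other 8 comparisons. Counts called in the accompanying lists moved by over 1.5 times in 13 to 43 of 133 settings each. Depth limits the low members: Col4a1 had 36 to 122 counts per library and Col17a1 1 to 15.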

Other observations

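Col24a1, a fibrillar collagen described in developing bone and singled out after its values were seen, averaged 4.71 ± 0.99 CPM in O+C mice, 3.35 ± 0.48 CPM in O&C mice, 4.28 ± 0.76 CPM in A+D mice, 4.15 ± 0.69 CPM in A&D mice and 3.25 ± 0.68 CPM in Control mice (SD, n = 3 each). For O+C against Control its log2 fold change was 0.54 ± 0.23 (SE), with an adjusted p of 0.172 in edgeR's test, and the groups overlapped. Col10a1, the collagen of hypertrophic cartilage, averaged 2.31 ± 0.14 CPM in O+C mice, 2.26 ± 0.83 CPM in O&C mice, 2.32 ± 0.60 CPM in A+D mice, 3.41 ± 0.98 CPM in A&D mice and 3.68 ± 0.22 CPM in Control mice. Its O+C, O&C and A+D libraries all lay below the Control libraries, those of A&D did not, and edgeR called it in none of these comparisons. Members wholly below Control were 6 of 36 (16.7%) in O+C mice, 11 (30.6%) in O&C mice and 3 (8.33%) in A+D mice. Of all genes 15.2%, 19.7% and 6.71% were, in the same order. Col6a5 ranged from 0.0408 to 0.934 CPM over the 15 libraries, with 1 to 24 counts.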
